A study of Mus musculus with 4 samples.

Results

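Genes of the cell cycle and of DNA replication were examined in RNA of mouse aorta. All mice were female and without apolipoprotein E, through which the liver takes up lipoprotein remnants. The members are 40 listed genes, and every probe set whose platform annotation names 1 of them and no other gene was taken. This gave 73 probe sets for 38 genes, of 22626 probe sets for 12393 genes in all. Ccnb1 and Espl1 had no probe set under this rule, and 1 probe set that names Tyms together with its pseudogene was left out. The apoE-/- defect was carried on C57BL/6 or on C3H/HeJ (written C3H), and each strain was fed chow throughout or a Western diet from the age of 4 weeks. All mice were 6 weeks old, so the Western groups had eaten that diet for 2 weeks. Every group thus lacks apolipoprotein E, and the labels describe chow as hyperlipidemia and Western diet as extreme hyperlipidemia. Each of the 4 groups has 1 array, and the labels do not say whether its RNA came from 1 mouse or several. There is no replicate, so no difference between 2 arrays has an error of its own or a test.

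A cell enters the cycle when D-type cyclins with Cdk4 phosphorylate the retinoblastoma protein and release the E2F factors. Cyclin E and cyclin A with Cdk2 then drive DNA synthesis, for which the MCM helicase is loaded beforehand, and cyclin B with Cdk1 drives mitosis. CDK inhibitors such as p21 (Cdkn1a) and p27 (Cdkn1b) hold cells back. Smooth muscle cells and endothelium of a healthy artery are known to divide rarely, so transcripts of S phase and mitosis are scarce there, whereas D-type cyclins and inhibitors are also made in cells that do not divide.

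The arrays give a linear signal per probe set, which was quantile normalized here, and signals under 83.6, the 40th percentile of all values, were treated as under a floor. By this definition 60% of all probe sets lie above the floor on any 1 array. A value under the floor is read as a bound only, and a fold against it, taken from the floor, is written "at least". The array of C3H on chow stood apart from the others. Its correlations with them over all probe sets (log2 signals) were 0.705 to 0.726, while the other pairs gave 0.746 to 0.761. Markers of the labelled tissue were present, since 12 of 12 smooth muscle genes and 11 of 12 endothelial genes were above the floor on all arrays. Heart muscle genes moved with strain: their summed signal was 17910 and 14061 in C57BL/6 on chow and Western diet and 893 and 936 in C3H, and 8 of 12 were lower in C3H at a limma adjusted p under 0.05. Of these 12 genes 1 was above the floor on all arrays and none was under it on all. The limma calls depend on a trend on mean signal in the fit, without which 0 of 14915 probe sets passed for strain. The part of heart muscle RNA in the strain differences of cell cycle genes was not tested. Adipocyte genes (9 of 10) and brown adipocyte genes (9 of 9) were above the floor on all arrays.

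Among the members, replication and mitosis genes were mostly near or under the floor, and D-type cyclins and inhibitors were mostly above it. Of the 73 member probe sets, 17 (23.3%) were above the floor on all 4 arrays, against 38.6% of all probe sets. A further 43 were above it on 1 to 3 arrays, of which 19 on a single array, and 13 on none. Of the 19 probe sets for D-type cyclins, Cdk4 and inhibitors, 11 (57.9%) were above the floor on all arrays. Of the 54 for the other members, 6 (11.1%) were. By gene, 11 of 38 had a probe set above the floor on every array, namely Ccnd1, Ccnd2, Ccnd3, Cdk4, Cdkn1a, Cdkn2c, Mcm4, Mcm6, Mcm7, Pcna and Rrm1. Another 4, Ccnb2, Cdc45, Birc5 and Racgap1, had none above it on any array. The numbers of member probe sets above the floor were 41 for C57BL/6 on chow, 34 for C57BL/6 on Western diet, 36 for C3H on chow and 36 for C3H on Western diet. In such bulk RNA, fewer dividing cells and less RNA per dividing cell cannot be told apart.

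**Figure D1:**
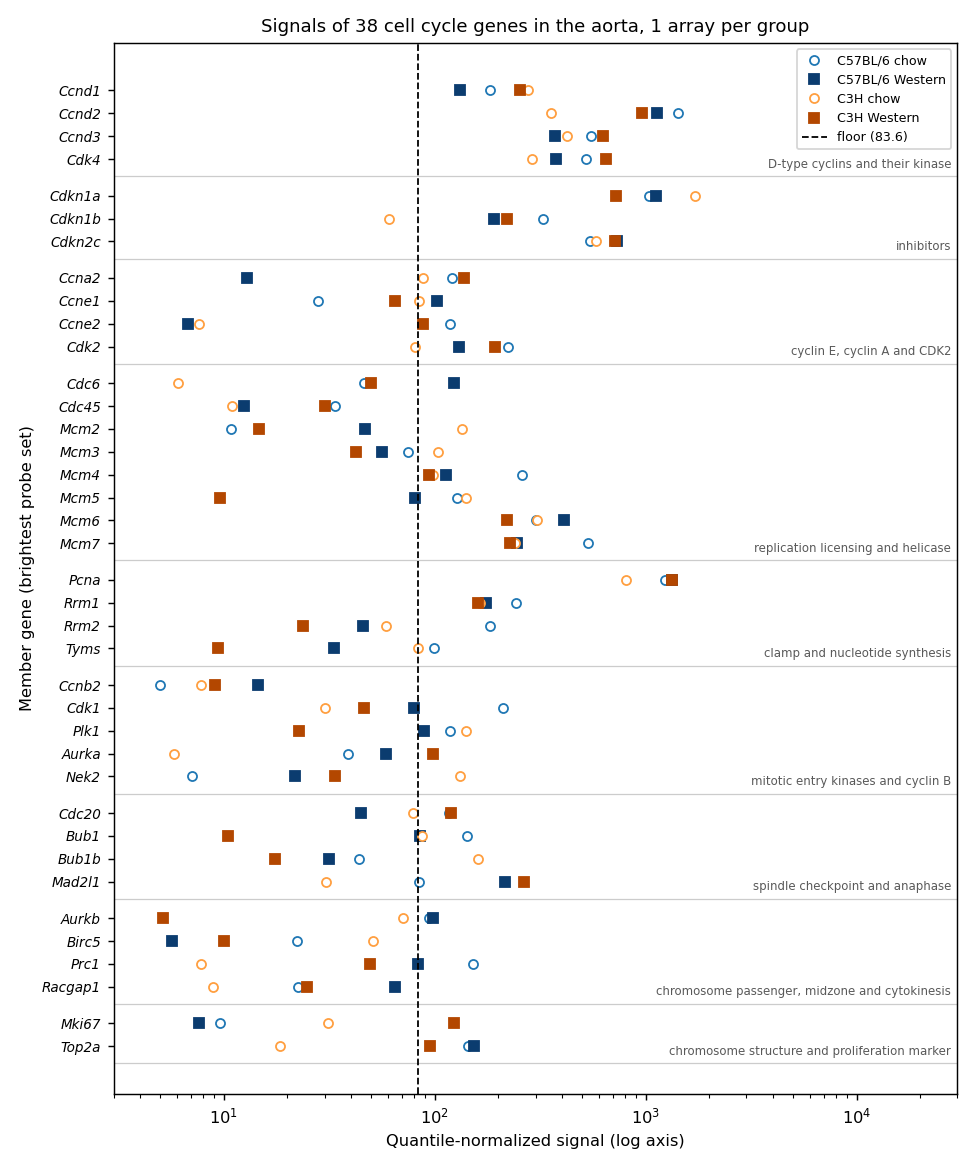
Quantile-normalized signal (log axis) of the brightest probe set of each of the 38 measured genes, ordered by role, with 1 point per array. Points left of the dashed line (83.6) are under the floor, as most points of the mitosis genes are, and signals of different probe sets cannot be compared with each other.

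The promoters of the members are shown because replication and mitosis genes are known to share promoter elements. These are the CCAAT box, bound by NF-Y, the cell cycle genes homology region (CHR) and E2F sites. RefSeq (GRCm38.p6) gave starts for 34 of the 40 genes, 39 starts in all, and none here for Ccna2, Ccnd1, Ccnd2, Ccne2, Mcm4 and Aurkb. The 250 bases before each start were searched on both strands. The searched letters were CCAAT for the first, TTTGAA or TTCGAA for the CHR, and TTCCCGC or TTCGCGC or TTGCCGC or TTGGCGC for E2F. Read on the other strand, a CCAAT box (ATTGG) can overlap TTGGCGC. Of 17 starts of mitosis members, 15 (88.2%) held a CCAAT box, 8 (47.1%) a CHR and 3 (17.6%) an E2F match. Of 12 starts of replication members, 10 (83.3%) held a CCAAT box, 3 (25%) a CHR and 7 (58.3%) an E2F match. Of 10 starts of the remaining 7 genes (Ccnd3, Ccne1, Cdk2, Cdk4 and inhibitors), 3 (30%) held a CCAAT box, 0 a CHR and 2 (20%) an E2F match. Over all 32851 starts of all genes the shares were 33.8% for CCAAT, 17.1% for the CHR and 7.89% for E2F. A match of letters is a description and not a binding site, and several starts of 1 gene overlap. In Ccnb2 the 3 CCAAT boxes begin 87, 54 and 21 bases before the start, 33 bases apart, with CHR letters at 167. In Cdk1 the CCAAT boxes begin 208, 80 and 48 bases before the start, with CHR letters at 71 and 15 and E2F letters at 178 and 130. In Cdc20 a CHR lies at 18, between CCAAT boxes at 53 and 8. Mcm6 holds E2F letters in overlapping pairs at 109 and 106 and at 46 and 43, while Rrm1 has 1 E2F match at 67 between CCAAT boxes at 91 and 45. The shown start of Cdkn1a holds none of these letters. Capitals mark the matches in the sequences, which run 5' to 3' on the strand of the gene and end at the last base before the start.
Cdk1 (chr10:69352913-69353162, minus strand): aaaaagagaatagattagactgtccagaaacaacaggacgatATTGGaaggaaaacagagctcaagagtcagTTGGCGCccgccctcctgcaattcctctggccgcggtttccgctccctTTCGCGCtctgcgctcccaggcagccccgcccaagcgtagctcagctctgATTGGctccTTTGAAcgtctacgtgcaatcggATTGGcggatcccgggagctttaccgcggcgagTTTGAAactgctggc
Ccnb2 (chr9:70421555-70421804, minus strand): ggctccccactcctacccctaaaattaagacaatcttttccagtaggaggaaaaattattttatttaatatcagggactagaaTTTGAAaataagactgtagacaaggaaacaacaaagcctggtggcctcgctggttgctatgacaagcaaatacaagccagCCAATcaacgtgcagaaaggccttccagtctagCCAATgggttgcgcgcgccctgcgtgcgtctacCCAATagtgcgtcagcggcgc
Cdc20 (chr4:118437344-118437593, minus strand): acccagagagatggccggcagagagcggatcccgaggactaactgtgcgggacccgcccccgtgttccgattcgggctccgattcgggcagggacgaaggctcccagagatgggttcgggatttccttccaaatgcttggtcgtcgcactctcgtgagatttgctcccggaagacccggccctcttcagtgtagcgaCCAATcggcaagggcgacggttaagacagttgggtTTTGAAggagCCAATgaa
Mcm6 (chr1:128359706-128359955, minus strand): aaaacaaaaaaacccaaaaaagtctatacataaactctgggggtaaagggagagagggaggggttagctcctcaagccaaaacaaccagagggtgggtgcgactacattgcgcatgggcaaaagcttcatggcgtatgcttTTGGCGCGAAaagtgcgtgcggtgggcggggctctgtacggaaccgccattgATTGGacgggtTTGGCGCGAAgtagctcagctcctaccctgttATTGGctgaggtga
Rrm1 (chr7:102441445-102441694, plus strand): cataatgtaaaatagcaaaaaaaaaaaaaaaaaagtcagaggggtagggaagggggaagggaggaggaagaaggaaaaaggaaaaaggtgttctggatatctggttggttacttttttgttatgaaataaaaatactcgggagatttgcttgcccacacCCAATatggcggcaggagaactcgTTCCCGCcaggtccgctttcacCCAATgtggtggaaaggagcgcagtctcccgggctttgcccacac
Cdkn1a (chr17:29093519-29093768, plus strand): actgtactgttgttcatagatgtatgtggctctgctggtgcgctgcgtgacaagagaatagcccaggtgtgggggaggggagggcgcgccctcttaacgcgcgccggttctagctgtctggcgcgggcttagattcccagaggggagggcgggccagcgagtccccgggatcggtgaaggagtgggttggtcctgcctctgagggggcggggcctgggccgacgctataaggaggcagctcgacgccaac

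On chow, member genes were more often lower than higher in C3H. Of 25 member probe sets measured on both chow arrays, 6 (24% of them) were at least 2-fold lower in C3H, against a background of 8.94% of all probe sets. None was at least 2-fold higher, against 8.20%. The 6 belong to 4 genes, Ccnd2 with 3 probe sets and Mcm4, Mcm7 and Rrm1 with 1 each. With 1 probe set per gene the count was 3 of 15, against 601 of 6605 over all genes. When values under the floor were raised to it, so that probe sets above the floor on 1 of the 2 arrays counted too, 11 of 52 were lower (background 10.8%) and 2 higher (background 10.3%). The median log2 difference over 15 genes measured on both arrays was -0.44, against 0.03 over all genes. A comparison without the C3H chow array exists only on Western diet.

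On Western diet no member measured on both arrays was 2-fold apart between the strains, and the background share was lower too. Of 23 member probe sets, 0 were at least 2-fold higher (background 4.17%) and 0 lower (background 4.24%). With values raised to the floor, 2 of 47 were higher, 1 each of Cdk4 and Mcm3 (background 6.04%). Another 2 were lower, 1 each of Ccnd2 and Rrm1 (background 5.98%). The median over 15 genes was -0.02, against 0.00 over all genes.

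Between diets, member probe sets stood on both sides. In C57BL/6, 3 of 29 were at least 2-fold higher on Western diet (background 3.79%), and 3 were lower (background 3.97%). The higher ones were 2 probe sets of Mcm7 and 1 of Mad2l1, and the lower ones were 1 each of Cdkn1a, Mcm4 and Mcm7. In C3H, 4 of 23 were higher (2 of Ccnd2 and 1 each of Cdk4 and Mcm7, background 6.40%) and 1 lower (Cdkn1a, background 5.95%). With values raised to the floor, 3 of 46 were higher (background 5.84%) and 6 lower (background 5.85%) in C57BL/6. In C3H the same rule gave 7 of 49 higher (background 8.55%) and 3 lower (background 8.40%). The medians over measured genes were -0.44 in C57BL/6 (18 genes) and 0.14 in C3H (12 genes). The C3H median was -0.11 after cyclic loess scaling, so its sign depends on the scaling. The split in C57BL/6 was 1 higher and 3 lower after cyclic loess, and that in C3H was 5 higher and 0 lower with equal array medians, which move the median of all probe sets there to 0.11. Each array enters 1 strain and 1 diet comparison, so a low or a high value on it moves both.

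**Figure D2:**
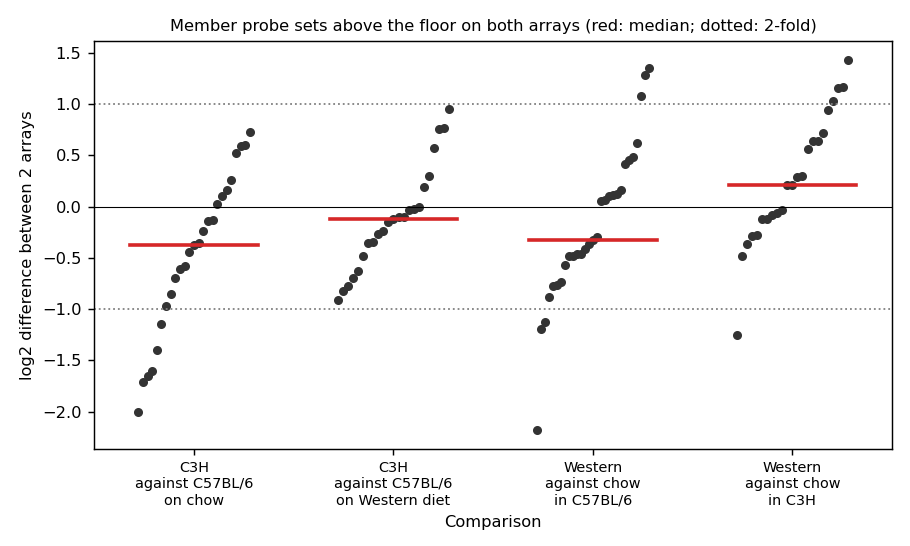
Log2 difference between 2 arrays for each member probe set above the floor on both, in 4 comparisons, sorted within each, with the median over probe sets in red and 2-fold limits dotted. On chow 6 of 25 probe sets lie under the lower limit and none over the upper, and on Western diet none of 23 lies outside.

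A scale for these differences comes from genes with several probe sets, since it is the only repeated measurement on these arrays. Within a comparison, probe sets of 1 gene differed by a pooled SD (log2) of 0.62 for strain on chow and 0.52 for strain on Western diet. For diet it was 0.51 in C57BL/6 and 0.58 in C3H (2047 to 2202 genes). Over the 3 to 6 member genes with such sets, the SDs were 0.63, 0.34, 0.89 and 0.65. A 2-fold difference (log2 of 1) by 1 probe set is therefore less than 2 of the SDs over all genes.

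The additive limma fit, with terms for strain and diet over all 4 arrays, tested 41 member probe sets of 25 genes among 14915. For strain 0 members passed an adjusted p of 0.05, where 0.121% of all probe sets were higher and 0.261% lower in C3H. For diet 0 members passed, and 0% of all probe sets did. At an unadjusted p under 0.05, limma gave 5 members for strain (3 probe sets of Ccnd2 and 1 each of Mcm3 and Rrm1), where 5.85% of all did. It gave 2 for diet (Cdkn1a and Mad2l1), where 2.46% did. The fit has 1 residual degree of freedom, the unreplicated interaction of strain and diet, and leans on a prior of 17.3 degrees of freedom shared across probe sets. An exact permutation test of 2 arrays against 2 cannot give a two-sided p under 0.333.

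Among the D-type cyclins, which couple growth signals to the cycle, Ccnd2 differed most clearly between the chow arrays. Its brightest probe set (1416122_at) gave signals of 1428 and 1133 in C57BL/6 on chow and Western diet, and of 357 and 961 in C3H on chow and Western diet. The C3H chow array is the low one and the other 3 lie close together. C3H was thus 4.0-fold below C57BL/6 on chow and 1.18-fold below it on Western diet. Between diets, C3H Western was 2.69-fold above C3H chow, and C57BL/6 Western was 1.26-fold below C57BL/6 chow. A second bright set (1434745_at) gave 1101, 893, 336 and 642 in the same order, and 1430127_a_at gave 456, 331, 146 and 298. Of the 7 probe sets of Ccnd2, 6 were lower in C3H on chow, and 1416124_at was under the floor on both chow arrays. The 5 measured on both arrays ranged from log2 -2.00 to -0.36. On Western diet the same 5 ranged from -0.82 to -0.15. In limma the strain difference of 1434745_at was log2 -1.09 with an SE of 0.36 and an adjusted p of 0.522.

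The fibroblast and smooth muscle lists were also lowest on the C3H chow array, and the endothelial list was highest there. Of all 6605 genes measured on both chow arrays, 601 were at least 2-fold lower in C3H and 529 higher. On chow, 14 of 14 measured fibroblast and matrix genes were 2-fold lower or more in C3H, with a median of log2 -2.00. On Western diet their median was 0.48. Their summed signal was 115828, 41823, 27927 and 56830 in the order C57BL/6 chow, C57BL/6 Western, C3H chow and C3H Western. Smooth muscle genes were lower in C3H on chow by a median of -0.95 (5 of 12 at least 2-fold) and differed by -0.02 on Western diet, with summed signals of 145356, 111506, 69876 and 111606. Endothelial genes summed to 8401, 9910, 11454 and 10258, with a median of log2 0.43 for strain on chow (3 of 11 at least 2-fold higher in C3H and 0 lower). Brown adipocyte genes were likewise highest on C3H chow, with a summed signal of 89255 on C3H chow against 45085 to 59690 on the other arrays. So were white and general adipocyte genes, with 121107 on C3H chow against 63996 to 84561 on the other arrays. The part of these lists in the Ccnd2 difference was not tested.

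Ccnd1 and Ccnd3 did not follow Ccnd2. The brightest probe set of Ccnd1 gave 183, 131, 276 and 253 in the order above, so both C3H arrays lay over both C57BL/6 arrays. The factor was 1.51-fold for the chow arrays and 1.94-fold for the Western arrays. Its strain difference in limma was log2 0.77 with an SE of 0.59 and an adjusted p of 0.848. A second Ccnd1 set gave 104, 5.79, 157 and 130, again higher in C3H, and its remaining set was above the floor only on C3H Western (127). Ccnd3 gave 550, 371, 424 and 627, and the strains overlap. It was 1.48-fold lower with Western diet in C57BL/6 and 1.48-fold higher in C3H. Cdk4, a kinase partner of the D-type cyclins, gave 318, 355, 288 and 333 by 1 probe set (1422440_at), a spread of at most 1.23-fold. Its brightest set (1422441_x_at) gave 519, 376, 288 and 644, which is 2.24-fold higher with Western diet in C3H. Its remaining set gave 204, 55.8, 292 and 238, so the sets of this gene disagree on the order of the arrays.

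**Figure D3:**
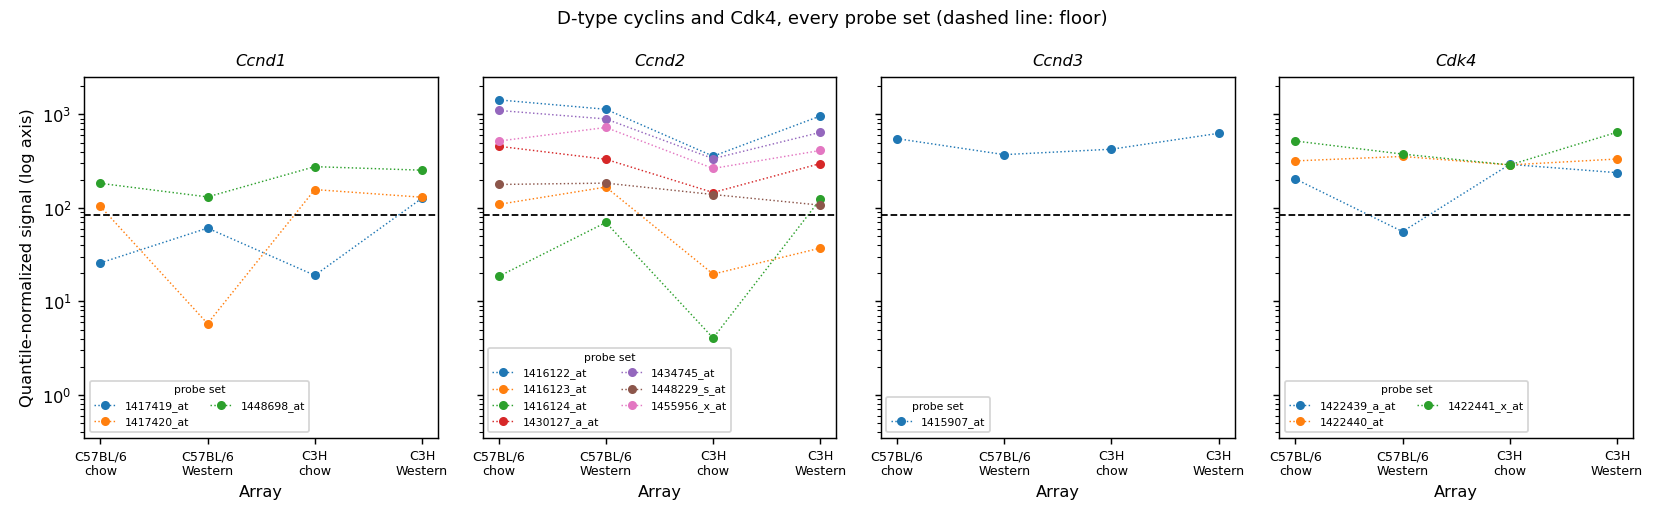
Signal (log axis) of every probe set of Ccnd1, Ccnd2, Ccnd3 and Cdk4 on the 4 arrays, with the floor of 83.6 dashed and dotted lines joining points of 1 probe set. The 4 brightest Ccnd2 sets are lowest on C3H chow, while both Ccnd1 sets measured on both chow arrays are higher in C3H.

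Of the inhibitor genes, Cdkn1a differed most between diets, Cdkn1b between the strains on chow, and Cdkn2c little in any comparison. Cdkn1a encodes p21, which is induced by p53 and by stress signals. Its brightest probe set (1424638_at) gave 1032 and 1115 in C57BL/6 on chow and Western diet, and 1712 and 720 in C3H. The 2 C3H arrays are the highest and the lowest, and the C57BL/6 arrays lie between them. With Western diet it was 2.38-fold lower in C3H and 1.08-fold higher in C57BL/6, and with arrays set to equal medians the C3H difference was just short of 2-fold. The other set (1421679_a_at) gave 420, 92.9, 383 and 20.7, so both chow arrays lay over both Western arrays. It was 4.52-fold lower in C57BL/6 and at least 4.59-fold lower in C3H. In limma its diet difference was log2 -3.19 with an SE of 0.83, an unadjusted p of 0.00119 and an adjusted p of 1. Both probe sets were thus lower with Western diet in C3H, but only this one in C57BL/6.

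Cdkn1b, the gene of p27, gave 326, 191, 60.8 and 219 by its brightest set, with only C3H chow under the floor. C3H was at least 3.91-fold below C57BL/6 on chow and 1.14-fold above it on Western diet. Its other set was above the floor only on C57BL/6 Western (124). Cdkn2c, which encodes the Cdk4 and Cdk6 inhibitor p18, differed little between arrays. It gave 545, 726, 582 and 717, with 1.07-fold and 1.01-fold between strains and 1.33-fold and 1.23-fold higher on Western diet in C57BL/6 and C3H.

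**Figure D4:**
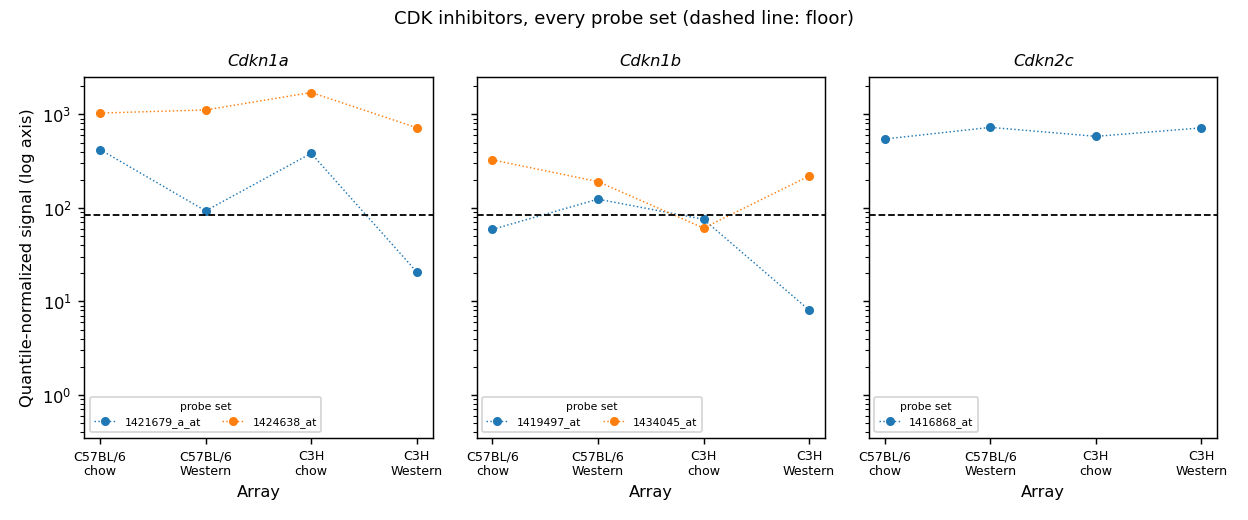
Signal (log axis) of every probe set of the CDK inhibitor genes Cdkn1a, Cdkn1b and Cdkn2c on the 4 arrays, with the floor of 83.6 dashed. Cdkn1a set 1421679_a_at is lower on both Western arrays (92.9 and 20.7) than on both chow arrays (420 and 383), while set 1424638_at is highest on C3H chow (1712).

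Cyclins of the G1 to S step were close to the floor. Ccne2 was above it on C57BL/6 chow (118) and barely on C3H Western (87.4), and it gave 6.73 and 7.58 on the others. Ccne1 was above it on C57BL/6 Western (102) and at it on C3H chow (83.7). Ccna2, needed in S phase and at entry to mitosis, gave 120, 12.8, 88.1 and 137, so C57BL/6 Western was the 1 array under the floor. Its other probe set was under the floor on all arrays. Cdk2, the kinase of both cyclins, gave 222, 130, 80.1 and 192. C3H was at least 2.66-fold below C57BL/6 on chow and 1.48-fold above it on Western diet.

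Among the genes that license and unwind origins, Mcm4, Mcm6 and Mcm7 were measured on every array. Mcm6 gave 301, 411, 306 and 220. The largest difference was 1.87-fold lower in C3H on Western diet, and the chow arrays differed by 1.02-fold. Mcm7 has 4 probe sets, which fall into 2 patterns. The sets 1416030_a_at (110, 269, 93.7 and 210) and 1416031_s_at (85.7, 182, 16.7 and 141) were higher on Western diet in both strains, the first by 2.43-fold in C57BL/6 and 2.24-fold in C3H. The sets 1438320_s_at (534, 244, 240 and 228) and 1439269_x_at (225, 122, 24.8 and 55.3) were highest on C57BL/6 chow, the first 2.19-fold lower with Western diet in C57BL/6. All 4 sets were lower in C3H on both diets, by 1.07-fold to 1.29-fold on Western diet where both arrays were measured.

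Mcm4 gave 259, 113, 97.6 and 93.7, with C57BL/6 chow above the other 3 arrays. That array was 2.65-fold above C3H chow and 2.28-fold above C57BL/6 Western, while its second set was under the floor throughout. Mcm5 gave 127, 80.5, 141 and 9.61, so both chow arrays were above the floor and both Western arrays under it. Mcm3 has 5 probe sets and none was above the floor on more than 2 arrays. The set 1426653_at gave 196 and 180 on the C3H arrays against 15.0 and 14.4 on the C57BL/6 arrays, at least 2.35-fold and 2.15-fold higher in C3H. The set 1449705_x_at also separated the strains (112 and 129 against 26.5 and 21.6), whereas 1420029_at separated the diets (109 and 107 on Western against 21.4 and 12.1 on chow). The other 2 Mcm3 sets were above the floor on C3H chow only (104 and 143). Mcm2 was above it on C3H chow alone (135), Cdc6, the loader of the helicase, on C57BL/6 Western alone (123), and Cdc45, its partner at active forks, on none.

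**Figure D5:**
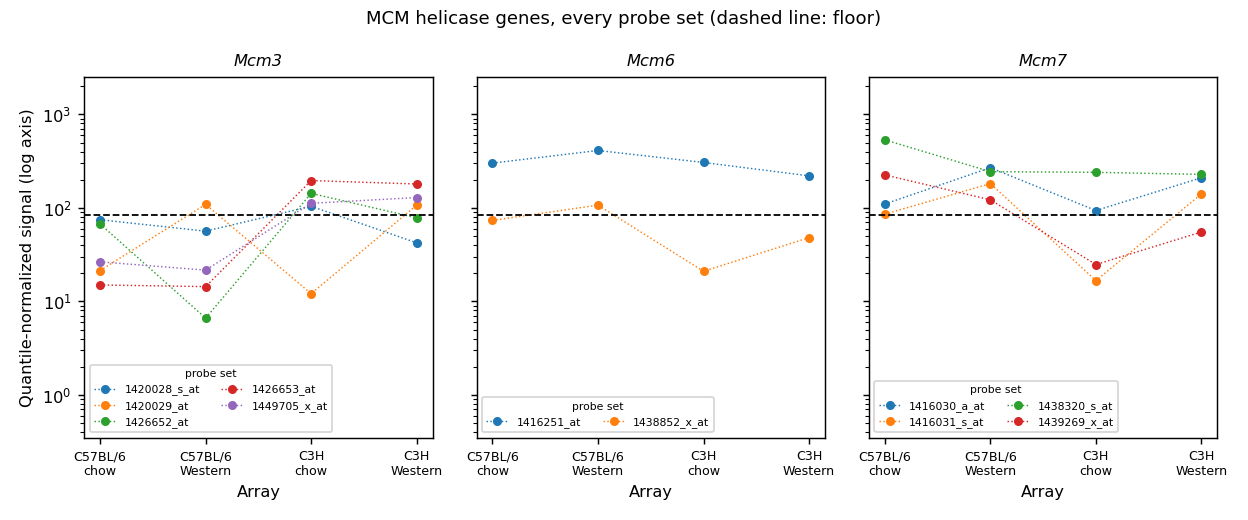
Signal (log axis) of every probe set of Mcm3, Mcm6 and Mcm7 on the 4 arrays, with the floor of 83.6 dashed. Probe sets of 1 gene disagree: of the Mcm3 sets 2 are above the floor on both C3H arrays only, and of the Mcm7 sets 2 are higher on Western diet while 2 are highest on C57BL/6 chow.

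Pcna, the sliding clamp of DNA polymerases, which also serves in repair, gave 1227, 1330, 805 and 1328. It was thus lowest on C3H chow, 1.52-fold under C57BL/6 chow, and 1.0-fold apart between the strains on Western diet. Its log2 strain difference in limma was -0.31 with an SE of 0.31. Rrm1, the large subunit of ribonucleotide reductase, gave 243, 174, 163 and 160 by its representative set. Its other set (1448127_at) gave 287, 223, 95.1 and 40.2, with both C3H arrays under both C57BL/6 arrays. The strains differed by 3.02-fold on chow and by at least 2.67-fold on Western diet. In limma that set had a strain difference of log2 -2.03 with an SE of 0.84 and an adjusted p of 0.762. Rrm2, the subunit made in S phase, was above the floor on C57BL/6 chow by 1 set (182) and on C3H chow by another (187), and its remaining set was under it everywhere. Tyms, thymidylate synthase, reached only 98.6 and 84.0 by 2 sets, both on C57BL/6 chow.

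No mitosis gene among the members was above the floor on all arrays. Cdk1, the kinase of mitotic entry, gave 210 on C57BL/6 chow and 79.2, 30.2 and 45.9 on C57BL/6 Western, C3H chow and C3H Western. It was thus measured on 1 array, at least 2.51-fold above the others. Its partner Ccnb2 gave 4.96 to 14.5. Plk1, a kinase of spindle assembly, gave 118, 89.1, 141 and 22.6. Aurka was above the floor on C3H Western alone (98.3) and Nek2, a centrosome kinase, on C3H chow alone (131).

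Mad2l1, a sensor of the spindle checkpoint, was higher on Western diet in both strains. It gave 84.1 and 214 on C57BL/6 chow and Western and 30.5 and 264 on C3H chow and Western, so both Western arrays were high and both chow arrays at or under the floor. It was 2.55-fold higher with Western diet in C57BL/6, from a chow signal at the floor, and at least 3.16-fold higher in C3H. In limma the diet difference was log2 2.23 with an SE of 0.95 and an adjusted p of 1. Its checkpoint partners did not share this order. Bub1 gave 142, 84.7, 87.1 and 10.4, and Bub1b was above the floor on C3H chow alone (160). Cdc20, which activates the anaphase-promoting complex, gave 117, 44.7, 78.5 and 119 by one set and 150, 37.1, 77 and 107 by another. Both sets were thus above the floor on C57BL/6 chow and C3H Western only.

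Genes of the chromosome passenger complex and of cytokinesis were mostly under the floor. Aurkb gave 93.7, 97.6, 70.8 and 5.16 by 1 set and was above the floor on C3H chow alone (109) by the other. Prc1, a bundler of midzone microtubules, gave 10.6, 11.2, 93.3 and 114 by 1 set and 151, 83.3, 7.79 and 49.2 by the other. The first set was high in C3H and the second on C57BL/6 chow, so the sets oppose each other. The highest signals of Birc5 (survivin) and Racgap1 were 50.8 and 64.8. Mki67, the gene of the proliferation marker Ki-67, gave 9.61, 7.58, 31.3 and 123, so C3H Western was the only array above the floor, by at least 1.48-fold. Top2a, a topoisomerase of S phase and mitosis, gave 144, 154, 18.5 and 95.1 by 1 set, with C3H chow under the floor, and at most 20.8 by the other.

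Blood cell genes are given beside Mki67. The erythroid, neutrophil and macrophage lists were highest on C3H Western, as Mki67 was, and the T lymphocyte list was not. The B lymphocyte list was also highest there, but only narrowly (1228 against 1196 on C3H chow). Of 14 erythroid genes 3 were above the floor on all arrays, and Epb42, Rhag and Rhd were under it on all. Their summed signal was 1217, 1224, 1722 and 3874 in the order C57BL/6 chow, C57BL/6 Western, C3H chow and C3H Western. Of the 3874, 2116 came from Alas2, an enzyme of heme synthesis in red cell precursors. Klf1, which defines red cell precursors, gave 115, 22.3, 105 and 19.9, and was thus under the floor on both Western arrays. Neutrophil genes summed to 986, 2357, 1043 and 3017, with Elane, Prtn3 and Cxcr2 under the floor on all arrays. Macrophage genes summed to 5992, 8026, 5524 and 9850, with Itgam under it on all. B lymphocyte genes summed to 1146, 804, 1196 and 1228, with 2 of 12 above the floor on all arrays and Pax5 and Vpreb1 on none. T lymphocyte genes summed to 1087, 785, 1184 and 937, with 1 of 12 above it on all arrays and Cd4 on none. The part of these lists in the Mki67 and Mad2l1 signals was not tested.

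Few other genes of the cell cycle, taken from lists drawn up for this work, passed a test. Of 37 further replication genes 13 were above the floor on all arrays, 29 were tested in limma and 0 passed for strain or diet. Of 48 further mitosis genes 10 were above the floor on all arrays. In limma 24 were tested, with 1 lower in C3H (Pttg1) and 0 higher for strain and 0 for diet. None of 24 tested genes of G1 control and the E2F pathway and none of 16 of the p53 pathway passed. Pttg1, which encodes the separase inhibitor securin, gave 4118, 4716, 288 and 305. C3H was 14.3-fold lower with chow feeding and 15.4-fold lower with Western feeding, and the limma adjusted p for strain was 9.58e-07. Without the trend on mean signal, the fit gave 0 calls for strain among 14915 probe sets. The heart muscle list has the same split of strains (17910 and 14061 against 893 and 936), and its part in the Pttg1 difference was not tested. Another of its 3 probe sets gave the same direction and the last was under the floor on all arrays.

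Some genes of these lists were lower with Western diet in both strains or differed in response between them. Btg2, an antiproliferative gene that p53 can induce, gave 1515, 728, 2435 and 1210, which is 2.08-fold lower in C57BL/6 and 2.01-fold lower in C3H. Perp, a p53 target of cell junctions, gave 601, 598, 112 and 289, with C3H the lower strain by 5.36-fold and 2.07-fold (limma adjusted p of 0.238). Among 11 p53 pathway genes measured on both C3H arrays, 4 were at least 2-fold lower and 2 higher with Western diet, with a median of log2 -0.37. Of all 6690 genes measured there, 393 were at least 2-fold lower and 433 higher. With values raised to the floor, 7 of 15 p53 pathway genes were lower and 2 higher, with a median of log2 -1.0, where 782 of 9624 genes were lower and 801 higher. In C57BL/6 the median of 12 was -0.10. Gadd45g gave 1745, 2060, 2814 and 1159, with C3H chow the highest and C3H Western the lowest array, as for Cdkn1a set 1424638_at. Gadd45b was 2.0-fold higher with Western diet in C57BL/6 and 2.01-fold lower in C3H, and its other sets did not repeat this. Trp53inp1 was 1.28-fold higher in C57BL/6 and 2.19-fold lower in C3H. Of the mitosis list, Ckap5, a microtubule polymerase, was 3.75-fold higher with Western diet in C57BL/6 and 1.06-fold higher in C3H. The chromokinesin gene Kif22 was 2.08-fold higher and 1.69-fold lower. Anln, a cytokinesis scaffold, was 1.42-fold lower and 2.0-fold higher, with C3H chow the low array (156 against 279 to 397). Among genes of the replication list above the floor on all arrays, the largest differences in response were those of Rfc1, Orc2 and Rfc4. By their representative sets all stayed under 2-fold in C3H, and Orc2 was 2.25-fold lower with Western diet in C57BL/6. With values raised to the floor, the other Orc2 sets gave log2 0.01 and 0.15 in C57BL/6, and -1.18 and 0.84 in C3H. The other Rfc1 sets gave log2 1.58 and 0.58 with Western diet in C3H. Genes under the floor on some array were not ranked. Of these, Fen1 gave 91.2, 393, 401 and 26.8 and Pole2 gave 205, 11.6, 42.4 and 168. Ccnh, a subunit of the CDK-activating kinase, gave 585, 509, 190 and 553, with the same low C3H chow array as Ccnd2. Tob1, an antiproliferative gene, gave 779 and 337 in C3H on chow and Western diet, and 435 and 416 in C57BL/6. Ccng1, a p53 target, gave 526, 282, 409 and 385, and its other sets did not repeat the C57BL/6 difference. No test of these differences of response is possible with 1 array per group.

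Directions were set side by side for the pairs of arrays, and no array is in both pairs. Of the 11 genes measured on all arrays, 6 (54.5%) had the same sign of strain difference on both diets, where 51.7% of all genes did, and 6 (54.5%) had the same sign of diet response in both strains, where 45.2% of all genes did. With values raised to the floor the member shares were 9 of 22 (40.9%) for strain, where 52.1% of all genes had the same sign, and 11 of 22 (50%) for diet, where 46.9% did.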

How the data were processed

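Per the labels' protocols, 8 ug of Trizol-extracted RNA per array was labelled with biotin and hybridised to a 1-colour Affymetrix array. The authors deposited linear intensity values, 1 per probe set; the sources used here do not name the software or background step. From these, 64 control probe sets were left out and log2 values were quantile normalized, since the deposited medians ran from 110.3 to 128.1. The members and lists were chosen with earlier results of these data known. Where 1 probe set stands for a gene, it is the one of highest mean signal. Pairs of arrays were compared at 2-fold with no test. limma 3.58.1 (R 4.3.3) fitted strain and diet to probe sets over the floor on 2 or more arrays, with a trend on mean signal. Its p-values were adjusted by Benjamini-Hochberg. They rest on the unreplicated interaction of strain and diet and on the shared prior, not on a spread between replicate arrays or animals. The script was tested on simulated data. Named were all members, and of the other lists Pttg1, up to 4 genes per direction that differed 2-fold in both pairs, and up to 3 with the largest difference of responses. That difference was taken only for genes above the floor on all arrays. Fen1 and Pole2, each under the floor on some array, were named outside this rule. Gene names come from the platform annotation, where 20380 probe sets name 1 gene, 691 several and 1555 are unnamed here. Promoters come from RefSeq (GRCm38.p6). Python 3.11.15 was used for the rest. The number of arrays limits the precision.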

Additional observations from a re-analysis of the deposited data

Results flagged for a closer look

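Diet responses of opposite direction in the strains, each of at least 1.5-fold with values under the floor raised to it, were seen for 2 member probe sets. Cdk2 differed by log2 -0.78 with Western diet in C57BL/6 and by 1.20 in C3H, where the chow signal of 80.1 lay just under the floor. The brightest set of Cdkn1b differed by -0.77 in C57BL/6 and by 1.39 in C3H, where the chow signal was 60.8. In both, C3H chow is the only array under the floor. The difference between the strains was not tested, and the count of 2 is given without a share over all probe sets.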

How the results depend on the processing

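Counts of member probe sets at least 2-fold different depended on the floor and the fold limit, in 25 of 40 alternatives by over 1.5 times, and are given here as totals in the order strain on chow, strain on Western diet, diet in C57BL/6 and diet in C3H (6, 0, 6 and 5 as reported). A floor at the 25th percentile gave 11, 9, 14 and 10 (of 36, 40, 44 and 32 compared). No filter gave 41, 36, 34 and 45 (of 73 in each). A floor at the 60th percentile gave 3, 0, 1 and 3 (of 15, 16, 16 and 15). A limit of 1.5-fold gave 13, 8, 11 and 9, and one of 3-fold gave 4, 0, 1 and 0. With 1 probe set per gene the counts were 3, 0, 3 and 3. With values raised to the floor, an alternative chosen after seeing the data, they were 13, 4, 9 and 10. For strain on Western diet, the deposited values and cyclic loess each gave 1. On chow, lower members outnumbered higher ones under every one of these settings. These counts are given here without shares over all probe sets. All settings use the same chow arrays, so their agreement does not repeat the result. The medians moved by less than the SD between probe sets of 1 gene in 32 of 32 alternatives. That SD (0.51 to 0.62) is larger than every reported median in size, so this limit cannot show that the medians are stable. The C3H diet median, for instance, ran from -0.11 to 0.40 within it. The 17 named 2-fold differences kept their direction in 51 of 51 scaling alternatives and stayed at least 2-fold in 48. In limma 0 members passed under each setting run (no trend, deposited values, equal medians, no filter). Over all probe sets, 57 passed for strain in the main fit and 0 with no trend. The strain calls of Pttg1 and of heart muscle genes thus depend on the trend. No paired analysis was possible because the labels give no replicate numbers. Leaving out an array was not run, since each group has 1 and the additive fit then has no residual degree of freedom. Signal near the floor limits most replication and mitosis members to bounds.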
